A study of Mus musculus with 4 samples.

Results

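*Foxf1*, *Foxf2*, *Foxl2*, *Foxd1*, *Foxc1*, *Foxc2*, *Foxp1* and *Foxp2* encode forkhead transcription factors that are known from mesenchyme. They were chosen by name, by their symbols in the count tables, and are 8 of the 32287 features counted. Single-cell RNA-seq of male mouse external genitalia at E16.5 was made in 4 libraries, 2 control (DTA-) and 2 DTA+, to ask how the embryonic penis and prepuce form when cells of the *Nr5a1* lineage are ablated. Control embryos carried no Cre and 1 conditional diphtheria toxin allele (DTA f/+, wild type in the genotype field of the labels). DTA+ embryos carried the *Nr5a1*-Cre transgene with the same DTA f/+ allele, so the Cre-dependent toxin allele was present in every embryo of both groups. The methods give biological replicates but do not say whether penises were pooled in a library.

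Several properties of this model bear on every comparison of genotypes. The Cre is driven by *Nr5a1* sequences, which are also active in the testis and adrenal gland, so loss of cells in the penis and loss of gonadal and adrenal hormones cannot be told apart here. A Cre-dependent tdTomato allele came from the sires of the DTA+ cross. tdTomato counted 0 and 0 unique molecular identifiers (UMIs) in the control libraries against 2485 and 2343 in the DTA+ libraries. The paper describes its transcript as leaky, with a low background in most cells. In the DTA+ libraries macrophages held 12 and 12 and mast cells 24 and 23 of these UMIs, so they do not mark the *Nr5a1* lineage alone. *Nr5a1* itself was all but absent, with 0 and 0 UMIs in the control and 0 and 2 in the DTA+ libraries, so it does not check the labels. With 2 libraries against 2, an exact two-sided permutation test cannot go below p = 0.333, so the genotype tests below are edgeR's quasi-likelihood tests across all genes.

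Forkhead factors bind DNA through a winged-helix domain, and the subfamilies mark different mesodermal tissues. *Foxf1* and *Foxf2* are known targets of hedgehog signals that epithelia send to the mesenchyme around them. *Foxl2* is known from the ovary and eyelid, *Foxd1* from the renal stroma, *Foxc1* and *Foxc2* from vessels and somites, and *Foxp1* and *Foxp2* from transcriptional repression in brain, heart, lung and limb.

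The libraries held 50779551 to 73577028 UMIs in 11343 to 12580 barcodes each, and 31132 cells passed the filters (6573 and 7874 control, 7875 and 8810 DTA+), with median depths of 4700, 4077, 3551 and 3560 UMIs. Any pair of libraries shared 31 to 48 barcodes. The cells formed 26 clusters in 22 populations, 22747 cells in populations named from marker genes (as periurethra-like, osteogenic-like and so on, written without the ending below) and 8385 in clusters that met no list and are called by genes among their leading ones. Of the 22 populations, 19 held at least 20 cells in every library and could be tested. General prepuce (1, 7, 529 and 302 cells in control 1, control 2, DTA+ 1 and DTA+ 2), smooth muscle and a *Ccn3*/*Akap12* cluster did not. The mesenchymal genes *Pdgfra*, *Col1a1* and *Col3a1* and the genital Hox gene *Hoxd13* were detected in every library. Cells with hemoglobin as leading genes held 942 to 1655 CPM (UMIs scaled to a common depth) of the collagen gene *Col1a1*, so they are mixed with mesenchymal RNA and give no clean background.

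In the GENCODE gene annotation, *Foxf1* and *Foxf2* each start beside a long noncoding RNA on the opposite strand. This matters for the likeness of patterns described further on. On GRCm38, *Foxf2* lies at chr13:31625816-31631403 on the forward strand, and the GENCODE start of *1700018A04Rik* (chr13:31565492-31625792, reverse strand) is 24 bases away. RefSeq places the start of *1700018A04Rik* elsewhere. Its RefSeq promoter window is chr13:31582464-31582763, inside the GENCODE transcript and not beside *Foxf2*. *Foxf1* lies at chr8:121084386-121088144 on the forward strand, and the start of *Fendrr* (chr8:121054882-121083110, reverse strand) is 1276 bases away. The RefSeq promoter windows of build GRCm38.p6 matched 5 of the 8 genes (*Foxf2*, *Foxl2*, *Foxd1*, *Foxc1* and *Foxp1*). In the 250 bases before the *Foxf2* start (chr13:31625566-31625815, forward strand), capitals mark the 23 bases between both GENCODE starts. In the 250 bases before the *Fendrr* start (chr8:121083111-121083360, reverse strand, between *Fendrr* and *Foxf1*), capitals mark a forkhead motif. Both read 5′ to 3′ as follows.
Foxf2 upstream: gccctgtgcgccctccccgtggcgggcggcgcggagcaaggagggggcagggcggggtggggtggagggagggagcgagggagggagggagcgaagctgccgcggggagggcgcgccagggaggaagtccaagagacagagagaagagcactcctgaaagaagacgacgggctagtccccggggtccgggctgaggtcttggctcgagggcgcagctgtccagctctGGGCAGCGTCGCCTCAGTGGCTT
Fendrr upstream: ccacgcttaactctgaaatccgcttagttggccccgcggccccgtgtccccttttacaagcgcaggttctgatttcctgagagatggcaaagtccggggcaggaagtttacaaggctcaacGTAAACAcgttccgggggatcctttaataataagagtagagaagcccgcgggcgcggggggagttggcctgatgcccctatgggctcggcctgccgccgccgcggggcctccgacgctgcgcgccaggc
The forkhead motif searched was TGTTTAC on both strands (GTAAACA as printed in the *Fendrr* window), which 3.65% of 32851 RefSeq windows held. The *Foxf2* window held no such match, no GLI motif (GACCACCCA, both strands, in 0.253% of windows), and the GC box GGGCGG on its forward strand 2 times. The GC box was present on either strand in 35.7% of windows, and the *Foxf2* window had 71.3% G and C. Each window had 300 bases, 250 before and 50 after the start, and these values cover all of them. Only the 250 before the start are printed. These matches describe letters and were not tested for binding.

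Each gene had its own order of levels across the 19 populations, given as mean CPM ± SD over all 4 libraries (n = 4), with TMM correction of the depth of the summed cells. Because the clusters were made from these cells, the levels are a description with no test, and levels were compared within a gene only. The named genes were kept out of the variable genes and the marker lists.

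*Foxf1*, which epithelial hedgehog signals are known to induce, was highest in periurethral mesenchyme at 72.3 ± 21.9 CPM, followed by osteogenic cells at 37.5 ± 14.0 and the *Sall3*/*Mmp11* cluster at 23.9 ± 8.21. Only the step from periurethra to osteogenic cells separated neighbours in this order without overlap of libraries. Of 1191 periurethral cells 24.3% held a *Foxf1* UMI at a median depth of 4000 UMIs, against 0 of 447 epithelial cells at 3528, which allows a share of up to 0.671%. *Foxf2*, its close relative, was highest in the *Sall3*/*Mmp11* cluster at 312 ± 37.8 CPM and next in periurethra at 244 ± 30.8, and its level then declined through subdermal prepuce at 165 ± 50.7 without a gap between any neighbours. A *Foxf2* UMI was found in 66.6% of *Sall3*/*Mmp11* cells at a median depth of 3841 UMIs and in 1.35% of 223 macrophages at 5314.

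*Foxl2* stood highest in the *Sall3*/*Mmp11* cluster at 40.4 ± 38.9 CPM and reached a mean of at most 4.24 CPM in any other tested population. Its lowest library there, at 7.90 CPM, still overlapped the highest of the *Sostdc1*/*Wnt16* cluster, at 8.36 CPM. In the population named periurethra, *Foxl2* averaged 0.756 ± 0.699 CPM and 3 of 1191 cells (0.252%) held a UMI. The paper stained FOXL2 protein to mark the periurethra. Of the periurethral markers used here, *Sall3* was enriched in the *Sall3*/*Mmp11* cluster and not in the population named periurethra. The name therefore may not cover all periurethral mesenchyme. A *Foxl2* UMI was found in 12.7% of *Sall3*/*Mmp11* cells against 0 of 496 endothelial cells at a median depth of 3347.5 UMIs, which allows up to 0.605%. Outside the tested populations, general prepuce had a *Foxl2* UMI in 11.6% of its cells, nearly all of which came from DTA+ libraries. *Foxd1*, a stromal factor, was also highest in the *Sall3*/*Mmp11* cluster at 123 ± 27.5 CPM, ahead of the *Irx1*/*Col7a1* cluster at 73.5 ± 12.0, proliferative cells at 44.4 ± 15.8 and *Coch* mesenchyme at 33.1 ± 6.47. The first and second of these overlapped between libraries.

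*Foxc1* and *Foxc2* did not have their highest levels in mesenchyme. *Foxc1* was highest in endothelium at 24.5 ± 15.1 CPM, then epithelium at 13.3 ± 6.94 and pericytes at 12.2 ± 5.31, and *Foxc2* was highest in pericytes at 30.6 ± 14.7 and next in endothelium at 11.8 ± 9.75. All of these neighbours overlapped. Over all mesenchymal cells neither gene exceeded 1.75 CPM in a library, so the levels of this pair go against a name as mesenchymal factors.

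*Foxp1*, a repressor of broad distribution, was detected in every population and was highest in neural cells at 399 ± 37.6 CPM, with no overlap to mast cells at 280 ± 60.2. Among mesenchymal populations it was highest in subdermal prepuce at 256 ± 94.4, the *Kera*/*Nefl* cluster at 247 ± 25.1 and periurethra at 216 ± 44.5, and lowest in the *Irx1*/*Col7a1* cluster at 35.2 ± 15.6. The control libraries of subdermal prepuce lay below the lowest *Kera*/*Nefl* library, at 210 CPM. The first rank of subdermal prepuce therefore rested on its DTA+ libraries. *Foxp2*, the paralogue of *Foxp1*, was highest in *Wnt10a* mesenchyme at 37.9 ± 12.1, then subdermal prepuce at 27.9 ± 9.42 and periurethra at 26.1 ± 15.6, with every neighbour overlapping. In general prepuce, which could not be ranked, 24.9% of cells held a *Foxp2* UMI, against 0 of 271 neural cells (up to 1.11%). These general prepuce cells were nearly all from DTA+ libraries (1 and 7 control against 529 and 302 DTA+ cells). The plot of levels by population shows these orders for all 8 genes.

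**Figure D1:**
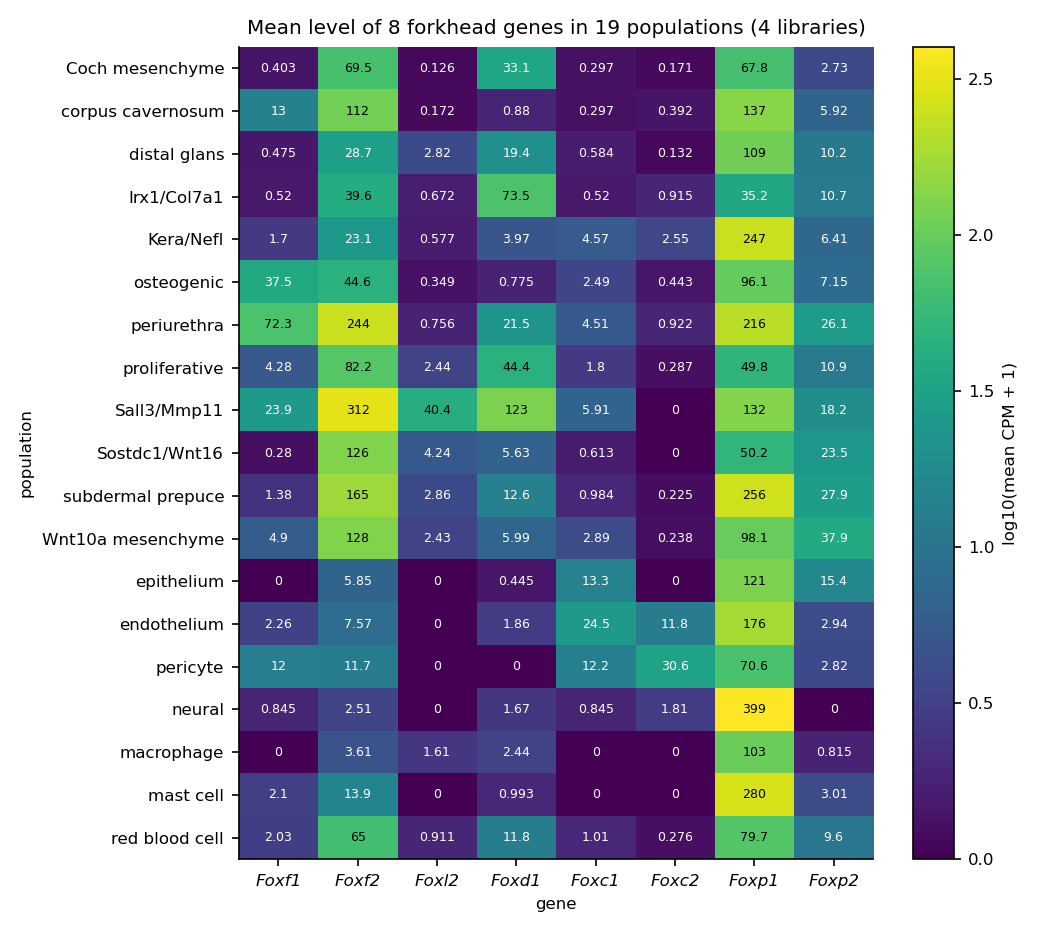
Mean CPM over the 4 libraries for each of the 8 forkhead genes (columns) in the 19 tested populations (rows), with the mean printed in each cell and the colour on a log10 scale of CPM + 1. *Foxf1* peaks in periurethra at 72.3, *Foxf2* (312), *Foxl2* (40.4) and *Foxd1* (123) in the *Sall3*/*Mmp11* cluster, and *Foxc1* (24.5) and *Foxc2* (30.6) in endothelium and pericytes.

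Summed over all mesenchymal cells, *Foxl2* and *Foxp2* were higher in DTA+ libraries, and no other gene of the 8 passed an adjusted p under 0.05 by edgeR (quasi-likelihood, Benjamini-Hochberg over the 15203 genes tested). Of all those genes 1.18% were called in either direction and 0.618% as higher in DTA+. *Foxl2* was at 1.98 and 2.63 CPM in the control libraries and 8.78 and 6.25 CPM in the DTA+ libraries, from 53, 75, 238 and 204 UMIs. Both DTA+ libraries lay above both control libraries, a separation that 50.4% of all genes showed in either direction, and the fitted log2 fold change was 1.71 (SE 0.26, edgeR adjusted p = 0.0381). *Foxp2* was at 8.64 and 13.0 CPM in the control libraries and 26.5 and 27.5 CPM in the DTA+ libraries, again without overlap, for a log2 fold change of 1.33 (SE 0.20, edgeR adjusted p = 0.0394). In such sums over mixed cells, more cells of a type and more RNA per cell cannot be told apart. Markers of single populations moved in the same sums. The 4 markers of general prepuce summed to 125 and 241 CPM in control and 373 and 302 CPM in DTA+, with 1 of 4 called higher (*Syt1*). Of the 5 periurethral markers reported here (*Ptch1*, *Gli1*, *Hhip*, *Sall3* and *Srd5a2*), which summed to 139 and 191 against 130 and 140 CPM, *Srd5a2* was called lower. The lists of subdermal prepuce and *Coch* mesenchyme had 1 marker lower each and that of pericytes 1 higher, and the part of these markers in the *Foxl2* and *Foxp2* calls was not tested.

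These calls lay near the threshold in edgeR's quasi-likelihood test, while DESeq2 called the same 2 genes over all mesenchyme. Left without control replicate 1, edgeR gave *Foxl2* an adjusted p of 0.107 and *Foxp2* one of 0.0501, and without control replicate 2 *Foxl2* had an adjusted p of 0.0655. Over all cells, where 0.488% of 15977 genes were called, edgeR called 0 of the 8 genes (3 at an unadjusted p under 0.05, 2 called by DESeq2), with an adjusted p of 0.0603 for *Foxl2* and 0.0678 for *Foxp2*.

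The other 6 genes did not pass over the mesenchyme. *Foxp1* was at 100 and 95.4 CPM in control and 130 and 117 CPM in DTA+, a log2 difference of 0.34 (SE 0.12, edgeR adjusted p = 0.215). *Foxf2* had 99.1 and 93.1 against 101 and 121 CPM (log2 0.22, edgeR adjusted p = 0.437), and *Foxf1* had 8.30 and 7.60 against 5.38 and 12.4 CPM (log2 0.18, edgeR adjusted p = 0.831), with DTA+ replicates on either side of the controls. For *Foxd1* and *Foxc1* the log2 differences were 0.18 and 0.02, and for *Foxc2* the difference was -1.10, on at most 0.523 CPM. The median log2 difference of the 8 genes was 0.20, with 7 of 8 positive, beside a median of -8.99e-05 over all genes tested.

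**Figure D2:**
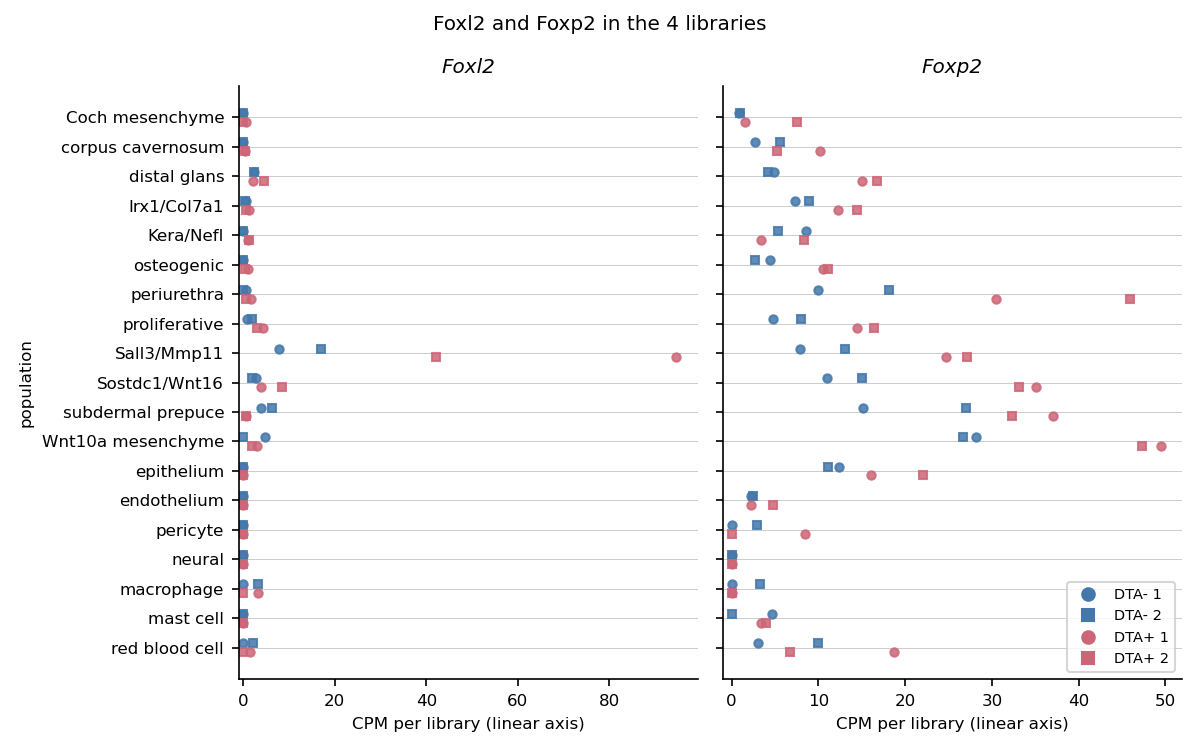
CPM of *Foxl2* (left) and *Foxp2* (right) on linear axes in each of the 19 populations, 1 point per library, with control (DTA-) in blue, DTA+ in red, replicate 1 as circles and replicate 2 as squares. *Foxl2* is low outside the *Sall3*/*Mmp11* cluster, where the DTA+ points lie at 94.6 and 42.2 and the control points at 7.90 and 17.1, while the red *Foxp2* points lie to the right of the blue in most mesenchymal populations.

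Among the single populations, *Foxl2* was called higher in the cluster led by *Sall3* and *Mmp11*. There, *Foxl2* had 7.90 and 17.1 CPM in the control libraries and 94.6 and 42.2 CPM in the DTA+ libraries, from 10, 17, 130 and 73 UMIs in 258, 263, 361 and 453 cells. The genotypes did not overlap, although the DTA+ libraries differed from each other, and the log2 fold change was 2.47 (SE 0.46, edgeR adjusted p = 0.0159 among 9564 genes, 3.43% of them called). The share of these cells with a *Foxl2* UMI was 3.88% and 5.70% in control and 25.2% and 11.7% in DTA+, at median depths of 4998, 3765, 3629 and 3682 UMIs, and 0.388% and 1.14% against 7.48% and 3.75% once every cell was thinned to 1000 UMIs. Macrophages, which should lack the gene, held a *Foxl2* UMI in 1 cell of the 48 and 63 control cells and in 1 cell of the 61 and 51 DTA+ cells.

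The *Sall3*/*Mmp11* cluster supplied 18.2% and 21.5% of all *Foxl2* UMIs in the control libraries and 54.2% and 35.6% in the DTA+ libraries, while it held 3.93%, 3.34%, 4.58% and 5.14% of the cells. With that cluster left out, *Foxl2* in the remaining mesenchyme was at 1.69 and 2.11 CPM in control and 4.21 and 4.22 CPM in DTA+, and the log2 fold change of 1.16 had an edgeR adjusted p of 0.0747. The difference between the change in this cluster and the change in the other mesenchyme was 1.25 on the log2 scale (SE 0.48, edgeR interaction adjusted p = 0.263, with 2.51% of genes called), so a larger change in the cluster was not established. In the *Sall3*/*Mmp11* test itself single libraries moved both the size and the call. The log2 fold change was 1.96 without control replicate 1 (adjusted p = 0.408) and 3.08 without control replicate 2 (adjusted p = 0.179), where the call was lost, and 1.79 without DTA+ replicate 1 and 2.98 without DTA+ replicate 2, where it held.

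Markers of other populations moved with *Foxl2* in this cluster. The 4 markers of general prepuce summed to 30.01 to 54.2 CPM in control and 192 to 707 CPM in DTA+, with 2 of 3 tested higher and none at 0. The 5 markers of distal glans summed to 340 and 258 CPM in control and 407 and 644 CPM in DTA+, with *Tac1* and *Inhba* called higher. Among the 5 periurethral markers *Hhip* was called higher and *Srd5a2* lower, and the lists of subdermal prepuce and pericytes had 1 marker higher each and that of smooth muscle 1 lower. Their part in the *Foxl2* difference was not tested.

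In the prepuce, the sign of the *Foxl2* difference was not the same in every grouping of the cells. In the population named subdermal prepuce, *Foxl2* was lower in DTA+, at 3.86 and 6.28 CPM against 0.687 and 0.609 CPM (14, 36, 1 and 1 UMIs), with a log2 fold change of -2.90 (SE 0.80, edgeR adjusted p = 0.0285, where 11.4% of 11041 genes were called). All control UMIs came from its *Ly6a*/*Igfbp5* cluster, which held 273 and 862 control cells but 34 and 15 DTA+ cells, and the *Thbd*/*Ptgis* cluster of the same population had 0, 0, 1 and 1 UMIs. General prepuce, with almost no control cells, was at 50.6 and 63.9 CPM in the DTA+ libraries. The 3 clusters with *Akap12* among their leading genes (*Ly6a*/*Igfbp5*, *Ccn3*/*Akap12* and general prepuce, grouped after the data were seen) were also summed. *Akap12* was enriched in smooth muscle cells too, which were left out of the sum. *Foxl2* was at 7.55 and 8.93 CPM in control and 18.97 and 13.6 CPM in DTA+ in this sum, a log2 difference of 0.92 with an edgeR adjusted p of 0.144. This sum also takes in cells of other populations, and the part of the grouping in the lower value of subdermal prepuce was not tested.

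*Foxp2* had a positive log2 difference, DTA+ over control, in each of the 10 populations where it passed the filter on low counts, from 0.67 to 1.81 and a median of 1.28, and in 9 of the 10 the genotypes did not overlap. The share of all gene and population pairs without overlap was 43.4%, and the populations come from the same 4 libraries, so these are not independent observations. A gene can pass this filter through the genotype in which it is higher, so the shared sign supports no direction. In the other 9 populations *Foxp2* was not tested. In distal glans mesenchyme *Foxp2* was at 4.85 and 4.15 CPM in control and 15.1 and 16.7 CPM in DTA+ (log2 1.81, SE 0.27, edgeR adjusted p = 0.00432, with 4.4% of 11634 genes called). Periurethral cells had 9.97 and 18.2 against 30.5 and 45.9 CPM (log2 1.55, SE 0.34, edgeR adjusted p = 0.00445, with 3.8% of 9489 genes called). In the cluster led by *Sostdc1* and *Wnt16*, *Foxp2* was at 10.9 and 15.02 against 35.0 and 33.1 CPM (log2 1.39, SE 0.23, edgeR adjusted p = 0.00942, with 1.93% of 11075 genes called).

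*Foxp2* was thus called higher in 3 populations of different identity, and in each the lowest DTA+ library lay above the highest control library. Within distal glans the rise was seen in the cluster of *Tac1* and *Tfap2c*, at 3.98 and 2.25 against 18.8 and 19.03 CPM (log2 2.51, edgeR adjusted p = 0.000214, 8.48% called), while the cluster of *Msx2* and *Inhba* had 5.81 and 5.97 against 12.9 and 14.7 CPM (log2 1.23, edgeR adjusted p = 0.142, 0.547% called). The difference between these clusters was not tested. In the *Akap12* clusters together, *Foxp2* was at 17.3 and 24.3 CPM in control and 81.5 and 64.1 CPM in DTA+ (log2 1.74, SE 0.23, edgeR adjusted p = 0.00427, 3.75% called), and these clusters supplied 13.2% and 24.6% of the gene's UMIs in control and 38.3% and 31.6% in DTA+. Without them, *Foxp2* in the remaining mesenchyme was at 7.95 and 11.1 against 18.4 and 21.7 CPM, a log2 difference of 1.08 with an edgeR adjusted p of 0.0549.

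Where *Foxp2* was highest, in *Wnt10a* mesenchyme, it had 28.2 and 26.7 CPM in control and 49.4 and 47.3 CPM in DTA+, without overlap but short of a call (log2 0.80, edgeR adjusted p = 0.219, 0.464% called). The change there minus that in the other mesenchyme was -0.63 on the log2 scale (SE 0.28, edgeR interaction adjusted p = 0.889, with 0.181% of genes called). Over all kept cells, 3.15% and 4.37% of control cells and 7.80% and 8.35% of DTA+ cells held a *Foxp2* UMI, and 0.685% and 1.14% against 2.30% and 2.57% after thinning to 1000 UMIs.

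The distal glans call rested on few control molecules (21 and 11 UMIs). It was lost at about the same size without control replicate 1 (log2 1.94, adjusted p = 0.460) and without control replicate 2 (log2 1.72, adjusted p = 0.270), and with every cell thinned to 1000 UMIs it held with a log2 fold change of 3.16. In periurethra the adjusted p was 0.0796 without control replicate 1, 0.191 without DTA+ replicate 2 and 0.235 with DESeq2, and in the *Sostdc1*/*Wnt16* cluster it was 0.319 with every cell thinned to 1000 UMIs.

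Several marker lists moved in the populations where *Foxp2* was called. The 6 red blood cell markers, none of them at 0, moved with these differences and summed to 3891 to 5465 CPM in control and 518 to 547 CPM in DTA+ periurethra, and to 1521 to 2258 CPM in control and 502 to 1066 CPM in DTA+ distal glans, with 4 of 4 tested lower in each. In periurethra the 7 subdermal prepuce markers also went from 403 to 429 CPM in control to 688 to 876 CPM in DTA+ (1 of 3 tested higher) and the 6 pericyte markers, 1 of them at 0, from 98.4 to 120 CPM to 152 CPM (2 of 4 tested higher, 1 lower). The 3 markers of *Coch* mesenchyme there went from 66.5 to 79.4 CPM to 15.2 to 43.2 CPM (1 of 2 tested lower), and of the distal glans markers 2 of 3 tested were higher and 1 lower. The lists of smooth muscle (1 higher), osteogenic cells (1 lower) and periurethra (*Srd5a2* lower) had 1 call each.

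In distal glans the 5 markers of proliferative cells went from 98.9 to 101 CPM in control to 41.0 to 51.03 CPM in DTA+ (2 of 4 tested lower), its own markers *Tac1* and *Inhba* were higher, and *Srd5a2* and 1 osteogenic marker were lower. In the *Sostdc1*/*Wnt16* cluster the general prepuce markers went from 104 and 150 CPM to 302 and 247 CPM (3 of 4 tested higher, 1 lower) and the red blood cell markers from 1549 and 1175 CPM to 820 and 351 CPM (2 of 4 tested lower), with 1 call each in 5 other lists. In the *Akap12* clusters the general prepuce markers rose (3 of 3 tested higher), while 4 of 5 tested smooth muscle and 4 of 4 tested red blood cell markers were lower. The part of these markers in the *Foxp2* differences was not tested.

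**Figure D3:**
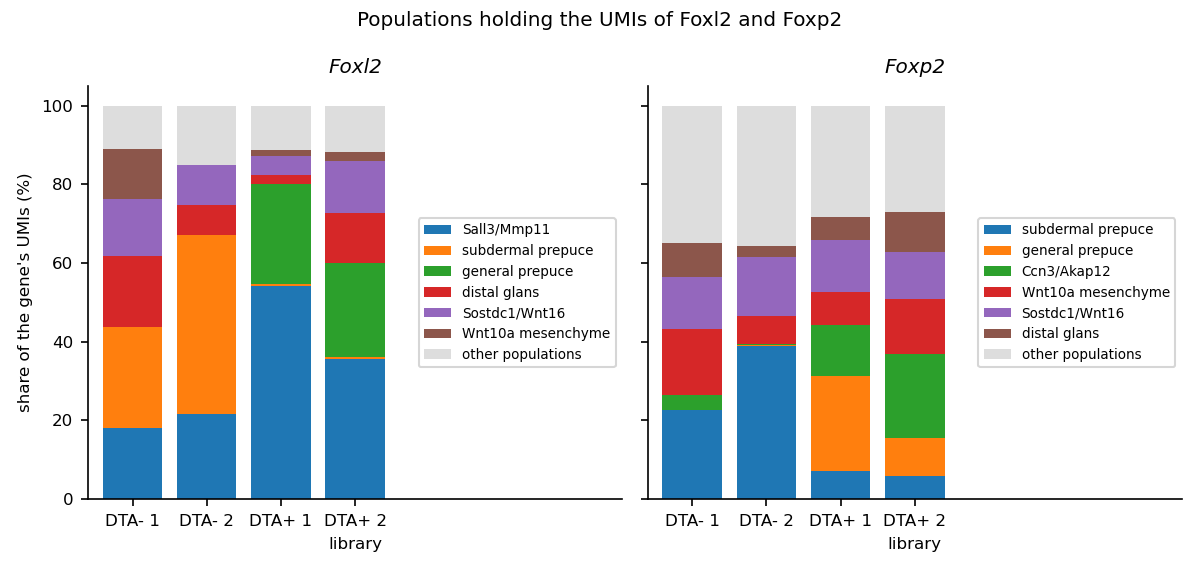
Share of all UMIs of *Foxl2* (left) and *Foxp2* (right) found in each population, in percent, 1 stacked bar per library, for the 6 populations with the highest share in any library and the rest in grey. The *Sall3*/*Mmp11* share of *Foxl2* is 18.2% and 21.5% in control and 54.2% and 35.6% in DTA+, and that of subdermal prepuce is 25.5% and 45.6% in control and 0.417% and 0.488% in DTA+.

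*Foxp1* and *Foxd1* passed the test in 1 named population, subdermal prepuce. *Foxp1* was at 188 and 168 CPM in control and 304 and 365 CPM in DTA+ (log2 0.95, SE 0.17, edgeR adjusted p = 0.00167). The same gene in the *Thbd*/*Ptgis* cluster alone, which held 418 to 453 cells of every library, was at 251 and 236 against 335 and 390 CPM, and the call held there at a smaller size (log2 0.61, edgeR adjusted p = 0.0128, 11.6% called). The size depended on the clustering, with log2 differences of 0.48 when genes that differ between genotypes were kept out of it and -0.068 at resolution 0.4, where the call was lost, and without DTA+ replicate 2 the adjusted p was 0.0549. *Foxp1* had a positive log2 difference in 18 of 19 populations, from -0.16 in the *Sall3*/*Mmp11* cluster to 0.95, and the genotypes did not overlap in 13 of them, against 43.4% of all pairs. Because all populations come from the same libraries, these counts are not independent observations.

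*Foxd1* in subdermal prepuce was at 4.42 and 5.23 CPM in control and 25.4 and 15.2 CPM in DTA+ (log2 2.08, SE 0.35, edgeR adjusted p = 0.00143). In the *Thbd*/*Ptgis* cluster it was at 6.52 and 15.6 against 28.8 and 16.3 CPM, and the log2 difference of 1.08 no longer passed (edgeR adjusted p = 0.0811). In the population where *Foxd1* was highest, the *Sall3*/*Mmp11* cluster, its 148 and 124 against 84.4 and 136 CPM overlapped (log2 -0.31, edgeR adjusted p = 0.576). Proliferative cells had 34.6 and 31.1 against 45.7 and 66.2 CPM without overlap (log2 0.79, edgeR adjusted p = 0.211, 0.383% called). In subdermal prepuce, smooth muscle markers went from 118 and 260 CPM in control to 18.5 and 12.8 CPM in DTA+ (5 of 5 tested lower), general prepuce markers from 464 and 891 CPM to 226 and 125 CPM (2 of 3 tested lower) and distal glans markers from 65.4 and 35.2 CPM to 193 and 213 CPM (3 of 4 tested higher), and 7 other lists had 1 or 2 calls each. Their part in the *Foxl2*, *Foxp1* and *Foxd1* differences there was not tested.

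*Foxf1* and *Foxf2* had no call in any population. In periurethra, the site of its highest level, *Foxf1* was at 58.5 and 81.0 CPM in control and 50.8 and 99.1 CPM in DTA+, so the DTA+ libraries enclosed the controls (log2 0.22, SE 0.25, edgeR adjusted p = 0.772). In osteogenic cells *Foxf1* had 32.4 and 19.95 against 50.5 and 46.9 CPM without overlap (log2 0.78, SE 0.26, edgeR adjusted p = 0.12, 3% called). *Foxf2* overlapped between genotypes both in the *Sall3*/*Mmp11* cluster, at 334 and 306 against 261 and 346 CPM, and in periurethra, at 233 and 250 against 210 and 283 CPM. Its smallest adjusted p was in subdermal prepuce, at 151 and 112 against 163 and 233 CPM (log2 0.64, edgeR adjusted p = 0.0578).

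*Foxc1* and *Foxc2*, low in mesenchyme, passed the filter in 1 population each, both of them vascular. In endothelium *Foxc1* was at 41.1 and 32.3 CPM in control and 17.4 and 7.21 CPM in DTA+, without overlap (log2 -1.53, SE 0.50, edgeR adjusted p = 0.844, 0.0177% called). *Foxc2* in endothelium counted 9, 8, 2 and 1 UMIs and fell below the filter on low counts, so it was not tested there. In pericytes *Foxc2* was at 32.2 and 17.4 against 22.4 and 50.6 CPM and overlapped (log2 0.62, edgeR adjusted p = 0.996, 0.162% called).

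Counted together, the 8 genes gave 59 tests in the 19 populations, since the remaining gene and population pairs did not pass the filter on low counts. Of these 59, 49 had a positive log2 difference, 6 were called higher in DTA+ and 1 lower, against 3.1% called among all gene and population pairs. The filter can pass a gene through the genotype in which it is higher, so these counts describe the pairs tested and support no direction. In the 15 named populations 5 of 42 were called (11.9%), against 3.58% of 115740. Leaving aside the 3 calls of subdermal prepuce, of which only that of *Foxp1* held in the *Thbd*/*Ptgis* cluster alone, the called pairs were *Foxp2* in distal glans, periurethra and the *Sostdc1*/*Wnt16* cluster and *Foxl2* in the *Sall3*/*Mmp11* cluster. In the interaction tests, 0 of the 8 genes changed more or less in their highest population than in the other mesenchyme at an adjusted p under 0.05 in edgeR (5 at an unadjusted p under 0.05). Of all genes in these fits, 2.51% were called for the *Sall3*/*Mmp11* cluster, 1.79% for periurethra, 0.438% for endothelium, 0.307% for pericytes, 0.208% for neural cells and 0.181% for *Wnt10a* mesenchyme.

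**Figure D4:**
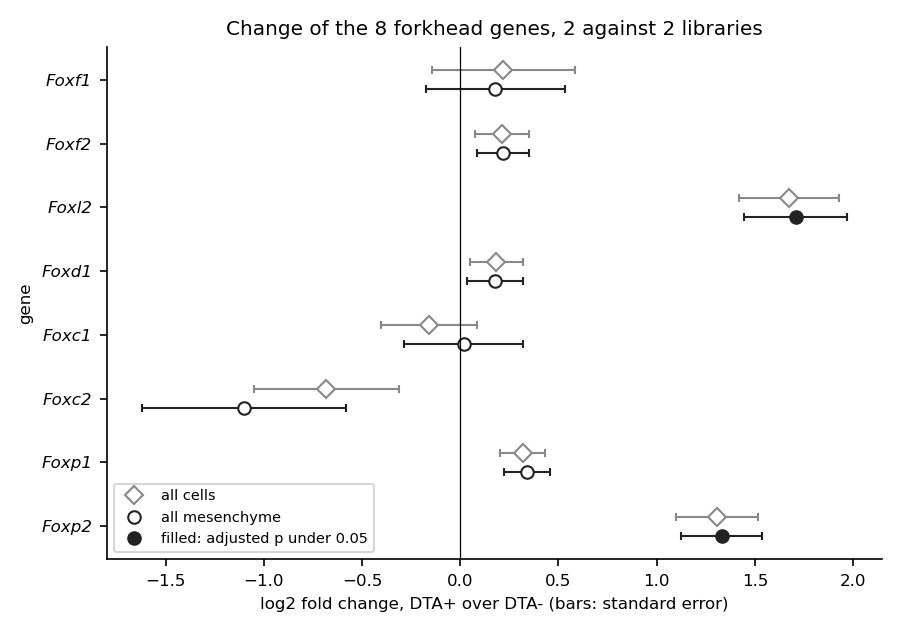
Log2 fold change of each of the 8 genes, DTA+ over DTA- (2 libraries against 2), summed over all cells (diamonds) and over all mesenchyme (circles), with bars of 1 standard error and filled symbols for an adjusted p under 0.05. Only *Foxl2* (1.71) and *Foxp2* (1.33) over all mesenchyme are filled.

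The genes whose level across the 19 populations was most like a member's were found among 10199 genes by Pearson's r of log2(mean CPM + 10), a description in which all points share the same libraries. For *Foxf1* it was *Fendrr* (r = 0.938), the noncoding RNA beside it, followed by *Frzb* (r = 0.841), a secreted Wnt antagonist. For *Foxf2* it was *1700018A04Rik* (r = 0.953), the transcript that starts 24 bases away in GENCODE but not in RefSeq. Next came the neprilysin gene *Mme* (r = 0.918) and *Srd5a2* (r = 0.915), the steroid 5-alpha-reductase that makes dihydrotestosterone. Both neighbours also ranked first in control libraries alone (r = 0.966 and 0.950) and in DTA+ libraries alone (r = 0.877 and 0.939). *Foxl2os* is an antisense transcript whose GENCODE start lies 11 bases from that of *Foxl2*, while their RefSeq starts lie further apart. *Foxl2os* was too low for this ranking, with at most 2.82 CPM in a population, and its r with *Foxl2* was 0.946. The tags counted come from the 3′ ends of transcripts, and where the reads of these pairs map was not tested.

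Neither neighbour of the Foxf genes passed the test of genotype over all mesenchyme. In periurethra *Fendrr* was at 52.5 and 57.9 CPM in control and 49.1 and 69.8 CPM in DTA+, and over all mesenchyme its log2 difference was 0.06 (edgeR adjusted p = 0.939). Over all mesenchyme *1700018A04Rik* was at 14.6 and 12.1 CPM in control and 14.4 and 14.6 CPM in DTA+ (log2 0.13, SE 0.15, edgeR adjusted p = 0.698). *Foxl2os* over all mesenchyme was at 0.0748 and 0.210 against 0.737 and 0.368 CPM, without overlap but on few molecules (log2 1.89, edgeR adjusted p = 0.225).

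**Figure D5:**
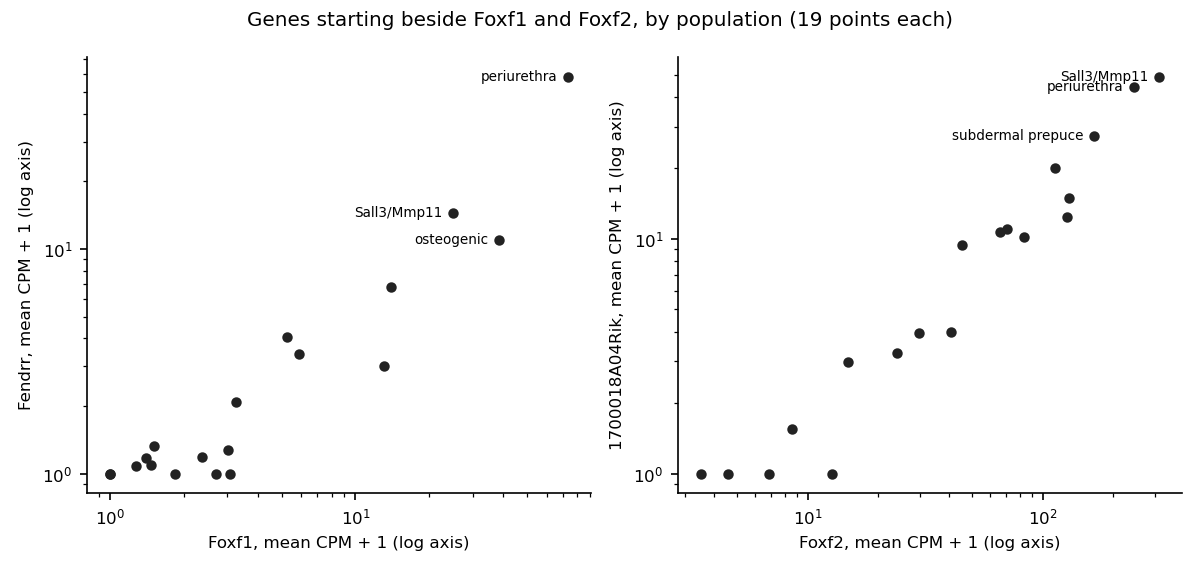
Mean CPM + 1 over 4 libraries of *Fendrr* against *Foxf1* (left) and of *1700018A04Rik* against *Foxf2* (right), on log axes, 1 point for each of 19 populations with the 3 highest of the forkhead gene named. Periurethra lies at the upper right for *Foxf1* and *Fendrr*, and *Sall3*/*Mmp11* and periurethra for *Foxf2* and *1700018A04Rik*.

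The genes most like the remaining members were *Dpp6* (r = 0.938) for *Foxl2* and *Sp5* (r = 0.884) for *Foxd1*. For *Foxc1* it was the fatty acid binding protein gene *Fabp4* (r = 0.917) and for *Foxc2* it was *Sept4* (r = 0.982). *Foxp1* was most like *Lrif1* (r = 0.754) and *Foxp2* most like *Hpse2* (r = 0.809). In DTA+ libraries alone the *Foxp1* match had r = 0.193, against 0.696 in control libraries. *Sept4* ranked 42 for *Foxc2* in DTA+ libraries alone. In control libraries alone *Hpse2* ranked 23 for *Foxp2* and *Dpp6* ranked 5 for *Foxl2*. *Sp5* and *Fabp4* ranked 1 or 2 in either genotype. *Foxl2* had a mean above 4.24 CPM only in the *Sall3*/*Mmp11* cluster, so its r leans on that point. Among the 8 genes themselves, *Foxf2* and *Foxp2* had the most similar levels (r = 0.742), then *Foxc1* and *Foxc2* (r = 0.662) and *Foxl2* and *Foxd1* (r = 0.632).

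Of 36 other forkhead genes, 16 were tested over all mesenchyme and edgeR called 0 (2 at an unadjusted p under 0.05, 0 by DESeq2), with a median log2 difference of 0.18 and 10 positive. Within populations *Foxq1*, which lies 69.682 kb from *Foxf2*, was higher in the *Irx1*/*Col7a1* cluster, at 12.4 and 11.6 against 35.9 and 53.9 CPM (log2 1.87, edgeR adjusted p = 0.0078, 0.774% called). *Foxn3* was higher in *Coch* mesenchyme (log2 0.72, edgeR adjusted p = 0.00626, 8.51% called), and *Foxo3*, a factor of the insulin pathway, was lower in the *Sostdc1*/*Wnt16* cluster (log2 -0.89, edgeR adjusted p = 0.0246). *Foxd2*, *Foxn3* and *Foxp4*, 3 of 14 tested, were called higher in subdermal prepuce, where 11.4% of all genes were called, and *Foxd2* and *Foxn3* were also called in its *Thbd*/*Ptgis* cluster alone (2 of 13 tested, 11.6% of all genes).

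Of 14 genes of the hedgehog pathway, which acts upstream of *Foxf1* and *Foxf2* in mesenchyme, 11 were tested over all mesenchyme and edgeR called 0 (0 at an unadjusted p under 0.05, 0 by DESeq2), with a median log2 difference of 0.12 and 8 positive. *Hhip*, an inhibitor that hedgehog signals induce, was higher in the *Sall3*/*Mmp11* cluster (log2 1.52, edgeR adjusted p = 0.0171), the cluster where *Foxf2* was highest. The co-receptor *Gas1* was higher in *Coch* mesenchyme (log2 0.70, edgeR adjusted p = 0.00321) and distal glans (log2 0.54, edgeR adjusted p = 0.0266). In corpus cavernosum, where 6.88% of 11082 genes were called, the co-receptors *Boc* and *Cdon* moved in opposite directions, with log2 differences of 0.58 and -0.90. In subdermal prepuce *Ptch1*, *Smo* and *Boc*, 3 of 10 tested, were called higher, and in its *Thbd*/*Ptgis* cluster alone *Boc* was.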

How the data were processed

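Gene by cell tables of 10x Genomics 3′ libraries held raw UMI counts as deposited by the authors, aligned to mm10 with tdTomato added. The file headers name Cell Ranger 4.0.0 and the methods name version 3. As in the study, a barcode was kept with over 1000 and under 7500 UMIs if mitochondrial genes gave no more than 25%, Hba genes 25% and Hbb genes 50% of them. Of all barcodes, 21.4% and 11.2% in the control libraries and 9.98% and 10.2% in the DTA+ libraries were at or over the upper limit. Cells were clustered with Seurat 5.3.0 (R 4.3.3, 2000 variable genes less the named genes, 30 components, resolution 0.8) and clusters were named from at least 3 enriched markers, present in at least 5% of cells at a log2 fold of at least 0.8 after adding 10 CPM. Counts were summed per library and population (at least 20 cells in each) and compared by genotype in edgeR 4.0.16, using filterByExpr, TMM and quasi-likelihood F tests with no other term. Benjamini-Hochberg adjustment ran over all genes of a fit, and the standard error of a log2 fold change is its size over the square root of F. The study tested cells with the replicate as a random effect; here sums per library were tested because cells are not replicates. An interaction fit compared the change in a gene's highest population with the other mesenchyme, with the library as a block. The methods call the libraries biological replicates, but nothing gives the number of animals in each, and p-values measure the spread between these libraries. Ranges for a count of 0 (3 over the number of cells) cover counting error only. Scrublet's automatic threshold called 3 of 31132 cells and so did not work, and the 1959 highest scores were left out in an alternative.

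The genes described were the 8 forkhead genes, 36 other forkhead genes, 14 hedgehog genes, genome neighbours and, for each gene with at least 20 CPM in a population, the genes of most similar level. These genes, lists and populations were chosen with earlier results of these data known, and the summed *Akap12* clusters after the data were seen. Alternatives were DESeq2 1.42.0, the likelihood ratio test, a replicate block, no filter on low counts, each library left out, thinning to 1000 UMIs, other resolutions and gene sets for clustering, and no upper UMI limit. The scripts were tested on simulated data. Coordinates are those of GENCODE vM21 and sequences those of RefSeq for GRCm38.p6. A few genes are not reported here.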

Additional observations from a re-analysis of the deposited data

How the results depend on the processing

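Over all cells, where edgeR's quasi-likelihood test called 0 of the 8 genes, DESeq2, the likelihood ratio test and no filter on low counts each called 2, leaving out the highest doublet scores called 1, and leaving out 1 library gave 1 to 2. Over all mesenchyme the 2 calls (*Foxl2* and *Foxp2*) became 0 to 2 with 1 library left out, 1 without the *Sall3*/*Mmp11* cluster and 1 without the *Akap12* clusters. The 5 gene and population calls became 2 with DESeq2, 10 with the likelihood ratio test, 11 with no filter, 8 at resolution 0.4, 11 at resolution 1.2, 11 when clustered without genes that differ between genotypes, 10 with no upper UMI limit, 3 with subdermal prepuce split into its clusters, and 3 to 6 with 1 library left out. With the replicate number as a block, 2 genes were called over all cells, 2 over all mesenchyme and 11 gene and population pairs. The labels do not say whether the numbers pair the samples. Deviations of same-numbered libraries had a correlation of -0.43 across genes, in sums over mixed cells. The mix of cell types enters this value, so it cannot show whether libraries shared a litter or day. With the pairing crossed (chosen after seeing the data) the block gave 2, 2 and 13 calls. The counts of calls above stand without the share of all genes called or the pairs tested under each setting. They describe only how the calls depend on processing. The highest population was kept for all 8 genes under 5 settings, for 6 at resolution 0.4 and for 3 with no upper UMI limit. The interaction tests called 0 to 2 genes with 1 library left out, 2 of them without DTA+ replicate 2. *Foxp1* in subdermal prepuce reversed to a log2 difference of -0.068 at resolution 0.4 (adjusted p = 0.957). In that population *Foxl2* lost its call without DTA+ replicate 1 or 2 (adjusted p = 0.141 and 0.198), with DESeq2 (0.231) and at resolution 0.4 (0.243), and *Foxp1* lost it without DTA+ replicate 2 (0.0549). The other forkhead and hedgehog lists had 0 calls over all mesenchyme in all 16 alternatives. Causes of these changes were not tested. Low counts limited the tests to 59 gene and population pairs, and *Foxc1* and *Foxc2* to 1 population each.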
